A study of Arabidopsis thaliana with 21 samples.

Results

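GH9B8 (AT2G32990), GH9B13 (AT4G02290) and GH9B18 (AT4G39010) are members of glycoside hydrolase family 9 of Arabidopsis thaliana, whose plant enzymes are endo-beta-glucanases. Each was represented by the single probe set that the probe annotation assigns to that gene alone, and they are 3 of 13286 genes with such a probe set. The genes were chosen by their known log2 values across the 7 groups of the study, so their levels and differences are a description, and no test is given for them. Of 25 family genes in the reference, 15 had a probe set of their own, 4 appeared only on probe sets shared by 2 genes, and 6 were not analysed here because the annotation named no probe set for them.

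Hypocotyls, the stem between root and seed leaves, were taken from plants aged 2 weeks, and 24 h had passed since treatment. RNA was measured on 21 ATH1 arrays, 3 for each of 7 groups, and each array held RNA pooled from 120 to 150 hypocotyls. All plants received lanolin with less than 10% ethanol. The 4 wild-type (Col-0) groups were intact, decapitated (shoot tip removed), decapitated with lanolin carrying 3 mg/mL of indole-3-acetic acid (IAA), the main natural auxin, and NPA, in which the labels name no decapitation and the lanolin carried 3 mg/mL of NPA, a compound that blocks the directed transport of auxin. The other 3 groups were max1, max2 and max3 mutants. The labels give no allele for them. MAX1 and MAX3 act in strigolactone synthesis and MAX2 in strigolactone and karrikin signalling, and the annotation names no probe set for these 3 genes, so the mutants' own transcripts were not analysed here. Samples that share a replicate number were treated at the same time per the labels, and all 7 groups hold numbers 1, 2 and 3.

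Plant family 9 enzymes fall into 3 classes. Class A enzymes, of which KORRIGAN is the best known, are anchored in the membrane and are needed for normal cellulose synthesis. Class B enzymes are secreted to the wall, and class C enzymes carry an added carbohydrate-binding module at their end. Endoglucanases act on the glucan chains of the wall, and auxin from the shoot tip is known to drive stem elongation and wall change. GH9B8, GH9B13 and GH9B18 belong to class B, and their individual roles in the hypocotyl are not described here.

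GH9B8 and GH9B13 had a closely similar pattern, high in intact plants and mutants, low after decapitation and NPA, and high again where IAA replaced the shoot tip. GH9B18 had another pattern at a low level, with its highest values under NPA and low values with IAA and in the mutants. Probe set means over all arrays had a low peak at 2.25 on the log2 scale, an expressed peak at 7.99 and a trough between them at 4.2. GH9B18 lay below that trough in 18 of 21 arrays. GH9B8 and GH9B13 lay above it in every array. Differences near the low peak are compressed on such arrays, so values of GH9B18 outside NPA are values close to background. Its NPA arrays, at 4.22 to 5.06, lay above the trough, the lowest only slightly, and well below the expressed peak. As the RNA came from whole hypocotyls, fewer cells of a type and less RNA per cell cannot be told apart.

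In intact plants GH9B8 stood at 11.75, 11.50 and 11.36 in replicates 1, 2 and 3 (11.54 ± 0.20 SD, n = 3). Decapitated plants had 6.60, 6.77 and 4.72 (6.03 ± 1.14 SD, n = 3). Plants given IAA after decapitation had 10.45, 9.94 and 10.12 (10.17 ± 0.26 SD, n = 3). The decapitated arrays all lay below every intact and IAA array, and replicate 3 was the lowest of them. With NPA the values were 8.18, 7.91 and 6.54 (7.55 ± 0.88 SD, n = 3), again with replicate 3 lowest, and the highest decapitated array overlapped the lowest NPA array. The max1 arrays had 11.33, 10.92 and 10.67 and the max2 arrays 11.43, 11.33 and 10.15. The max3 arrays had 11.30, 10.78 and 10.70. Of the mutants max2 overlapped the intact arrays, through its replicate 1, and max1 and max3 lay just below them.

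GH9B13 had 14.59, 14.16 and 14.46 in intact plants (14.41 ± 0.22 SD, n = 3). After decapitation it had 10.43, 10.13 and 9.22 (9.93 ± 0.63 SD, n = 3). With IAA it had 13.88, 13.54 and 13.81 (13.74 ± 0.18 SD, n = 3). As for GH9B8, decapitated arrays did not overlap intact or IAA arrays and replicate 3 was the lowest. The NPA arrays had 10.64, 10.99 and 10.19 (10.61 ± 0.40 SD, n = 3), overlapping the decapitated arrays. In max1 the values were 14.02, 13.88 and 13.78, in max2 14.29, 14.12 and 14.01, and in max3 13.92, 13.99 and 13.97. Only max2 overlapped intact. The max1 arrays also overlapped the IAA arrays, which max2 and max3 did not.

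GH9B18 had 3.92, 4.07 and 4.11 in intact plants (4.03 ± 0.10 SD, n = 3). Decapitated plants had 3.04, 3.38 and 3.05 (3.16 ± 0.19 SD, n = 3), and plants with IAA 2.79, 2.76 and 3.24 (2.93 ± 0.27 SD, n = 3). Both groups lay below the intact arrays and overlapped each other. The NPA arrays had 4.87, 4.22 and 5.06 (4.72 ± 0.44 SD, n = 3), all above every other array, although replicate 2 exceeded the highest intact array only slightly. The max1 arrays had 2.76, 2.70 and 2.67, the max2 arrays 2.69, 2.69 and 2.82, and the max3 arrays 2.98, 2.98 and 3.00. All 9 mutant arrays lay below the intact and the decapitated arrays.

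**Figure D1:**
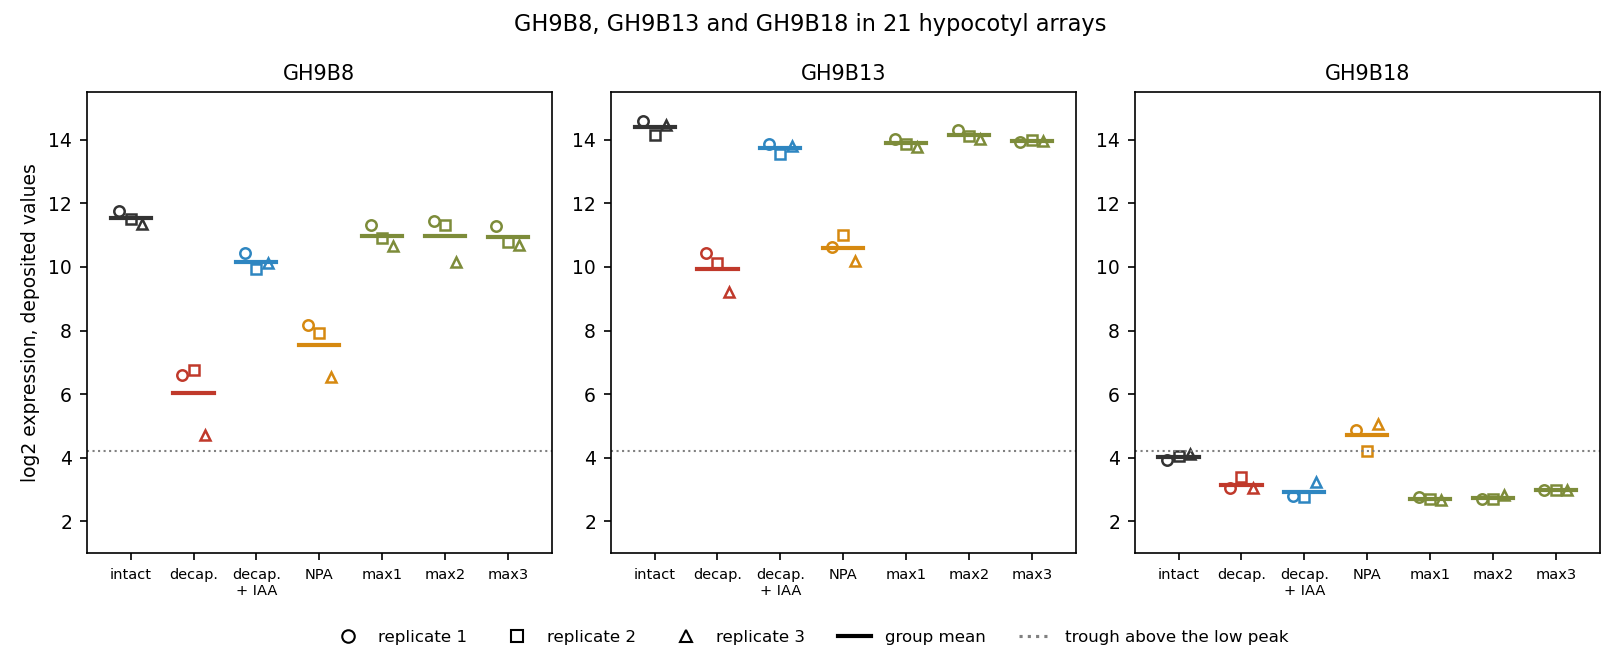
Deposited log2 values of GH9B8, GH9B13 and GH9B18 in each of the 21 arrays, by group, with 1 symbol for each replicate number, a bar for the group mean and a dotted line at the trough of 4.2. GH9B8 and GH9B13 are low in decapitated and NPA arrays, whereas GH9B18 lies above the dotted line in NPA arrays alone.

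Ordered by mean, GH9B8 was highest in intact plants, followed by max1 (10.98 ± 0.33 SD), max2 (10.97 ± 0.71) and max3 (10.93 ± 0.33), then IAA, NPA and decapitated. Neighbours in this order whose arrays overlapped were max1 and max2, max2 and max3, and NPA and decapitated. GH9B13 ran from intact to max2 (14.14 ± 0.14 SD), max3 (13.96 ± 0.04), max1 (13.89 ± 0.12), IAA, NPA and decapitated, and all of these neighbours overlapped apart from max2 and max3, and IAA and NPA. GH9B18 ran from NPA to intact, decapitated, max3 (2.99 ± 0.01 SD), IAA, max2 (2.74 ± 0.08) and max1 (2.71 ± 0.05). Its first 3 steps down, from NPA as far as max3, were between groups that did not overlap, and the steps below them were between groups that did. From lowest to highest array the span was 7.03 for GH9B8, 5.37 for GH9B13 and 2.39 for GH9B18 on the log2 scale.

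Decapitation was compared with intact plants to ask what depends on the shoot tip. GH9B8 differed by -5.51 ± 0.51 on the log2 scale (± is the SE of the model over all 21 arrays), which is 45.4-fold lower, and GH9B13 by -4.48 ± 0.25, which is 22.3-fold lower. Within replicate numbers 1, 2 and 3 the differences of GH9B8 were -5.15, -4.72 and -6.64 and those of GH9B13 were -4.16, -4.03 and -5.24, so number 3 held the widest gap for both genes. Without decapitated replicate 3 the difference of GH9B8 was -4.85, a change of 1.57-fold in the ratio. For GH9B18 the difference was -0.88 ± 0.17 and lay between -1.06 and -0.70 within the replicate numbers.

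IAA-treated and decapitated plants were compared to ask what auxin alone restores. GH9B8 was higher with IAA by 4.14 ± 0.51 and GH9B13 by 3.81 ± 0.25 on the log2 scale. In numbers 1, 2 and 3 these differences were 3.85, 3.16 and 5.39 for GH9B8 and 3.44, 3.41 and 4.59 for GH9B13. With decapitated replicate 3 left out, GH9B8 was higher by 3.48. GH9B18 did not follow, with a difference of -0.23 ± 0.17 and values of -0.25, -0.62 and 0.19 that did not share a sign. Against intact plants the IAA group stood at -1.37 ± 0.51 for GH9B8, -0.67 ± 0.25 for GH9B13 and -1.11 ± 0.17 for GH9B18. For all 3 genes each replicate number had IAA below intact. The largest of these gaps were -1.56, -0.72 and -1.31 in turn. These comparisons use the same intact and decapitated arrays, so their values are not independent of each other.

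NPA was used to ask what depends on auxin transport. Against intact plants GH9B8 stood at -3.99 ± 0.51, or 15.9-fold lower, and GH9B13 at -3.80 ± 0.25, or 13.9-fold lower. The values within numbers 1, 2 and 3 were -3.57, -3.58 and -4.82 for GH9B8 and -3.95, -3.17 and -4.27 for GH9B13. GH9B18 differed by 0.69 ± 0.17 on the log2 scale, with 0.95, 0.15 and 0.95 in numbers 1, 2 and 3, and since its intact arrays all lay below the trough no fold is given. Against decapitated plants all 3 genes were higher with NPA. GH9B8 differed by 1.51 ± 0.51 (1.58, 1.14 and 1.82 by number), GH9B13 by 0.68 ± 0.25 (0.21, 0.86 and 0.97) and GH9B18 by 1.56 ± 0.17 (1.83, 0.85 and 2.02). Without decapitated replicate 3 the first of these was 0.86.

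Each mutant was compared with intact wild type to ask how loss of strigolactone synthesis or response affects the hypocotyl. GH9B8 stood at -0.56, -0.57 and -0.61 in max1, max2 and max3, each ± 0.51. GH9B13 stood at -0.52, -0.27 and -0.45, each ± 0.25. In every replicate number both genes were below intact in every mutant. The mutants of a replicate number are set against the same intact array, so these differences are not independent of each other. The narrowest gaps were in max2 number 2, with -0.17 for GH9B8 and -0.04 for GH9B13. For GH9B18 the differences were -1.32, -1.30 and -1.05, each ± 0.17. Within the numbers they ran from -1.44 to -1.15 in max1, from -1.38 to -1.22 in max2 and from -1.12 to -0.94 in max3. The GH9B18 levels in the mutants lie between the low peak and the trough, so the differences there are between values close to background.

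**Figure D2:**
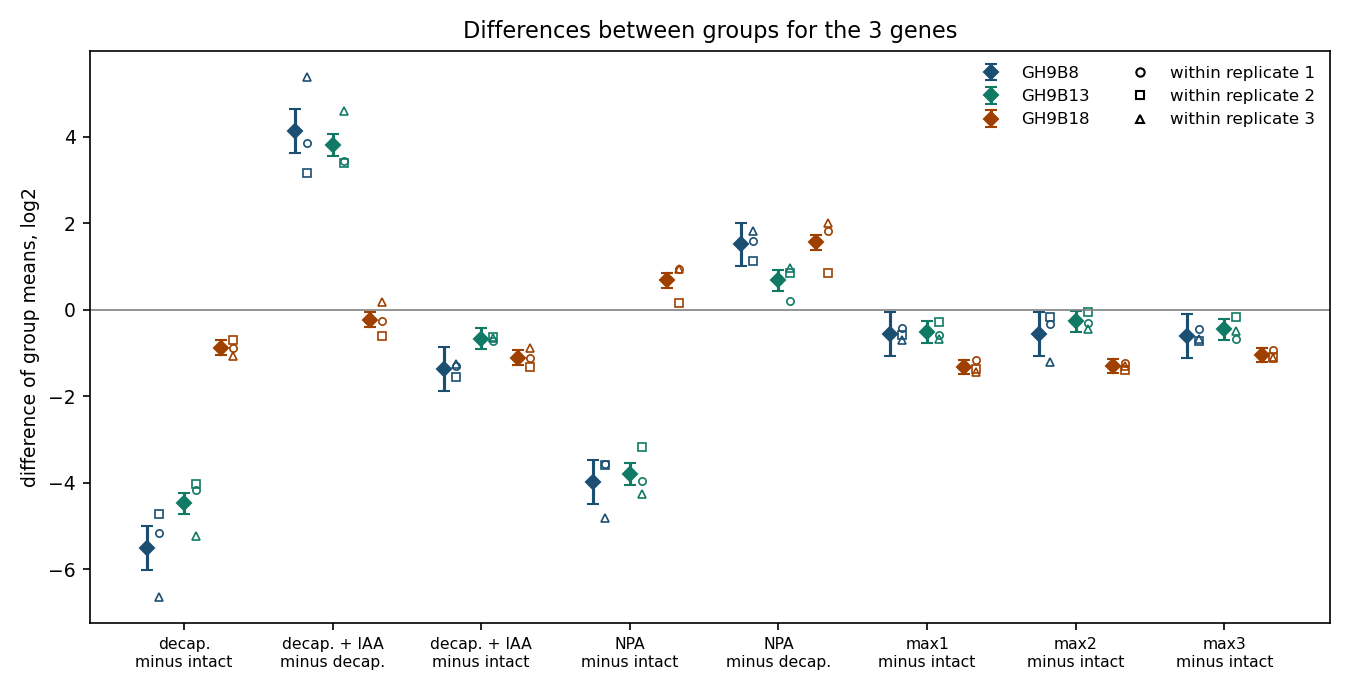
Differences between group means of GH9B8, GH9B13 and GH9B18 on the log2 scale in 8 comparisons, with diamonds for the fitted difference, bars for 1 SE of the model either way, and open symbols for the difference within each replicate number. GH9B8 and GH9B13 have the same sign in each comparison. GH9B18, whose values are close to background, has the opposite sign in NPA minus intact. Its fitted difference is also opposite in IAA minus decapitated (-0.23 ± 0.17), but there the arrays overlap and the replicate numbers do not share a sign.

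Replicate 3 lay below its group mean for GH9B8 in 7 of 7 groups, by 0.55 on average (mean deviation -0.55), and replicate 1 lay above it in 7 of 7 groups (mean deviation 0.41). GH9A3, a class A gene, had the same order, with mean deviations of -0.58 for replicate 3 and 0.42 for replicate 1, each on the same side in 7 of 7 groups. GH9B13 deviated less (-0.18 for replicate 3, below the mean in 4 of 7 groups). The deviation of GH9B18 in replicate 3 was 0.10. With the replicate number as a block in the fit, the SE of a difference was 0.34 for GH9B8, 0.22 for GH9B13 and 0.17 for GH9B18.

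Over the 21 arrays GH9B8 and GH9B13 had a Pearson r of 0.98, which rests largely on the gap between the 6 decapitated and NPA arrays and the other 15. Over those 15 arrays r was 0.79, and for the deviations of single arrays from their group means it was 0.82. This likeness was not particular to the pair. Over all arrays the family gene GH9B7 had r = 0.93 with GH9B8 and 0.95 with GH9B13, and GH9C2 had 0.91 and 0.92. Over the 15 arrays these values were 0.88 and 0.69 for GH9B7 and 0.58 and 0.14 for GH9C2. GH9B18 had r = -0.33 with GH9B8 and -0.42 with GH9B13 over all arrays, but 0.45 and 0.65 over the 15, so the sign depends on the decapitated and NPA arrays. GH9B8 also shared its deviations from the group means with GH9A3 (r = 0.84). These are descriptions over arrays that share groups and replicate numbers, with no test.

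Among 13435 other probe sets that name 1 gene, GH9B13 was the one most like GH9B8 over the 21 arrays (r = 0.976), followed by AT4G30020 (0.973), AT5G43150 (0.972), the ubiquitin ligase gene LUL4 (AT3G06140, 0.967) and AT3G25290 (0.964). Those most like GH9B13 were AT2G28410 (0.984), AT1G72230 (0.981), AT2G40480 (0.977), SETH6 (AT2G47860, 0.977) and AT3G06035 (0.976). GH9B18 had weaker neighbours, AT3G19850 (0.859), the ubiquitin-conjugating enzyme gene UBC28 (0.846), AT5G15780 (0.841), AT4G35070 (0.833) and AT3G25950 (0.833). The most opposed patterns were AT2G16005 (-0.967), AT1G21920 (-0.965) and AT1G29090 (-0.963) for GH9B8, and AT4G24050 (-0.986), AT5G59530 (-0.983) and again AT1G21920 (-0.981) for GH9B13. For GH9B18 they were AT1G49740 (-0.846), AT5G21100 (-0.827) and AT1G05350 (-0.824). These names depend on the measure. By Spearman's rho 0 of the first 5 stayed for GH9B8, 0 for GH9B13 and 1 for GH9B18.

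The rest of the family was tested with limma, with Benjamini-Hochberg adjustment over all 22746 probe sets of a comparison and a threshold of 0.05 on the adjusted p. These lists were drawn up with earlier results of these data known. Of the 12 other family genes with a probe set of their own, only GH9A3, GH9B7 and GH9C2 had a mean above the trough. GH9B16 and GH9B17, which directly precede GH9B18 among the coding genes of its chromosome, stayed at 2.03 to 2.20 and 1.86 to 1.92 in all 21 arrays, near the low peak. GH9B9, GH9B10, GH9B11 and GH9B12 are likewise neighbours. The probe set shared by GH9B10 and GH9B9 had group means from 3.00 to 3.37, and the one shared by GH9B15 and GH9B14 from 2.58 to 2.74. GH9A4, GH9B6, GH9B12 and GH9C3 stayed below 2.37 in every array. GH9B11 had its highest array at 3.21.

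After decapitation 2 of the 12 fell and 0 rose, beside 13.4% of all probe sets lower and 12.8% higher. The lower count is near the share over all probe sets. The class B gene GH9B7 fell from 10.70 to 8.82 (-1.88 ± 0.13, adjusted p = 4.1e-08). The class C gene GH9C2 fell from 10.85 to 8.83 (-2.02 ± 0.22, adjusted p = 5.2e-06). GH9A3 had 7.33, 7.16 and 6.66 in intact and 6.27, 6.59 and 5.45 in decapitated plants. Its difference of -0.95 ± 0.47 did not pass (adjusted p = 0.170) but did with the replicate block (adjusted p = 0.0079). With array medians subtracted, which shifts the median over all probe sets by 0.11, 4 rose and 2 fell. The 12 had a median of 0.00 and all probe sets one of 0.03.

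With IAA the same 2 genes rose over decapitated plants and 0 fell, beside 11.0% of all probe sets higher and 11.9% lower. The higher count is likewise near the share over all probe sets. GH9B7 rose by 1.11 ± 0.13 (adjusted p = 1.2e-05) to 9.94 and GH9C2 by 1.69 ± 0.22 (adjusted p = 4.4e-05) to 10.51. GH9A3, at 7.63, 7.35 and 6.49 with IAA, differed by 1.05 (adjusted p = 0.113, or 0.0050 with the replicate block). The median of the 12 was -0.03 and that of all probe sets -0.04. Against intact plants GH9B7 was the 1 gene that fell with IAA and 0 rose, where 4.78% of all probe sets were lower and 3.89% higher. It stood at -0.76 ± 0.13 (adjusted p = 0.0014), and GH9C2 at -0.34 (adjusted p = 0.479).

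Under NPA 2 of the 12 fell and 1 rose against intact plants, beside 13.9% of all probe sets lower and 13.9% higher. These counts are near the shares over all probe sets. GH9B7 changed by -2.13 ± 0.13 (adjusted p = 9.9e-09) and GH9C2 by -2.46 ± 0.22 (adjusted p = 6.8e-07). The class C gene GH9C1 rose by 1.24 ± 0.36 (adjusted p = 0.018), with 3.29, 4.48 and 2.48 in NPA against 2.16 to 2.21 in intact plants. Only its NPA replicate 2 exceeded the trough, and the call was lost without that array and in a fit of the NPA and intact arrays alone (adjusted p up to 0.184). GH9A3, at 6.51, 6.67 and 5.40, differed by -0.86 (adjusted p = 0.179, or 0.014 with the replicate block). With array medians subtracted 6 rose and 2 fell. The medians were 0.01 for the 12 and 0.04 for all probe sets. Between NPA and decapitated plants limma called 0 of the 12, 0 had an unadjusted p below 0.05, and of all probe sets 1.12% were higher and 1.23% lower.

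In max1, max2 and max3 limma called 0 of the 12 against intact plants. Of all probe sets 1.92% were higher and 1.82% lower in max1, 1.65% and 1.47% in max2, and 0.998% and 1.02% in max3. At an unadjusted p below 0.05 there were 1 in max1, 2 in max2 and 1 in max3. GH9B5, at 3.2, 2.29 and 2.38 in intact plants, reached 4.42 in 1 max2 array, and its difference of 0.83 in max2 had an adjusted p of 0.384. GH9B7 stood within 0.20 of intact in each mutant, with -0.10, -0.14 and -0.20.

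**Figure D3:**
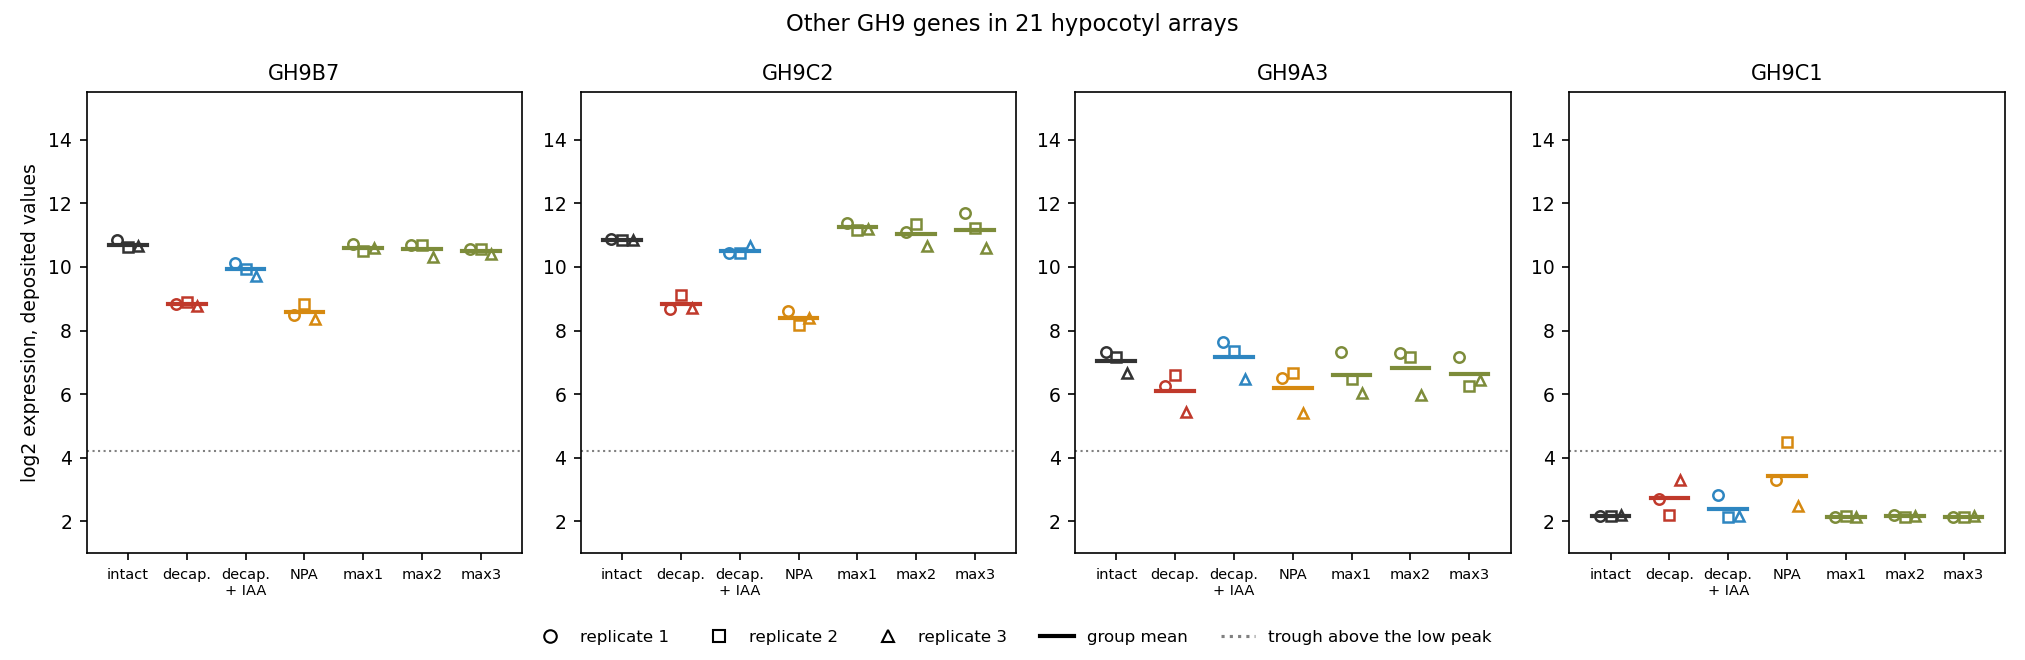
Deposited log2 values of GH9B7, GH9C2, GH9A3 and GH9C1 in each of the 21 arrays, by group, with bars for group means and a dotted line at the trough of 4.2. GH9B7 and GH9C2 drop in decapitated and NPA arrays, and GH9C1 under NPA has 1 array above the line, replicate 2 at 4.48.

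Genes of other proteins that make or change the wall were taken as lists. Whether they act with GH9B8, GH9B13 or GH9B18 was not tested. None of the 6 cellulose synthases of the primary wall and none of the 3 of the secondary wall had a probe set of its own here. Of 9 listed proteins that accompany cellulose synthesis 5 were measured, and they moved in the directions seen for GH9B8 and GH9B13. All 5 fell after decapitation (median -1.53, all probe sets 0.03), all 5 rose with IAA (median 1.14, all probe sets -0.04) and all 5 fell with NPA (median -1.34, all probe sets 0.04). Of all probe sets 13.4% were called lower after decapitation, 11.0% higher with IAA and 13.9% lower with NPA. COB (AT5G60920), a membrane-anchored protein needed to orient cellulose fibrils, changed by -1.71 ± 0.08 after decapitation (adjusted p = 9.5e-10) and by 1.14 ± 0.08 with IAA (adjusted p = 8.2e-08). AT5G42860 changed by -3.19 ± 0.23 and 3.06 ± 0.23, and AT2G41770 by -1.53 ± 0.18 and 1.25 ± 0.18. AT1G45688 changed by -0.98 ± 0.20 and 0.63 ± 0.20, and the second call was lost under 6 of 13 alternatives. AT3G57420 changed by -0.97 and 0.47. With IAA, 3 of the 5 instead of all 5 were called without decapitated replicate 2, without IAA replicate 1 and in a fit of the 2 groups alone. NPA changed COB by -1.61 ± 0.08 and AT5G42860 by -2.94 ± 0.23.

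IAA left 2 of the 5 below intact plants, COB at -0.56 ± 0.08 (adjusted p = 0.00046) and AT3G57420 at -0.50 ± 0.15 (adjusted p = 0.047), the latter lost under 11 of 13 alternatives including the replicate block (adjusted p = 0.051). COB was also the 1 gene lower in max1 (-0.38 ± 0.08, adjusted p = 0.018) and in max2 (-0.38 ± 0.08, adjusted p = 0.020). These calls were lost under 6 and 4 of 13 alternatives, with adjusted p up to 0.094 and 0.196. In max3 and between NPA and decapitated plants limma called 0 of the 5, with 0 at an unadjusted p below 0.05. Of all probe sets 4.78% were called lower with IAA than in intact plants. The shares called lower in max1, max2 and max3 were 1.82%, 1.47% and 1.02%.

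Alpha-expansins loosen the wall, and 8 of the 19 listed here, which are not the whole family, were measured. Of these 8, 5 had a mean over all arrays above the trough of 4.2. After decapitation 2 fell and 0 rose (median -0.01), beside 13.4% of all probe sets lower and 12.8% higher, and with array medians subtracted 2 fell and 2 rose. EXPA15 (AT2G03090) changed by -4.2 ± 0.46 (adjusted p = 4.9e-06) and EXPA4 (AT2G39700) by -2.73 ± 0.17 (adjusted p = 1.6e-08). With IAA 3 rose and 1 fell (median 0.04), beside 11.0% of all probe sets higher and 11.9% lower. EXPA15 rose by 3.94 ± 0.46, EXPA4 by 2.58 ± 0.17 and EXPA20 (AT4G38210) by 1.66 ± 0.19, and EXPA9 (AT5G02260) changed by -2.39 ± 0.50. With IAA EXPA9 stood at 3.27, below the trough. EXPA20 was the 1 expansin above intact with IAA (1.54 ± 0.19) and 0 were called below it, or 1 without intact replicate 2. Of all probe sets 3.89% were higher and 4.78% lower in that comparison. Under NPA 3 fell and 1 rose (median -0.03), beside 13.9% of all probe sets each way, with EXPA4 at -3.78 ± 0.17 and EXPA15 at -3.23 ± 0.46. Without intact replicate 2, NPA replicate 1 or NPA replicate 2, and in a fit of the 2 groups alone, 2 fell and 0 rose. The split was 2 lower and 2 higher with the replicate block and 2 lower and 3 higher with array medians subtracted. EXPA4 was also lower with NPA than after decapitation (-1.05 ± 0.17, adjusted p = 0.0046), as were 1.23% of all probe sets. In max1 EXPA9 (2.57 ± 0.50, adjusted p = 0.0081) and EXPA20 (1.12 ± 0.19, adjusted p = 0.0039) were higher, and in max2 EXPA20 (1.26 ± 0.19, adjusted p = 0.0017). Of all probe sets 1.92% were higher in max1 and 1.65% in max2. These 3 mutant calls and that of EXPA4 between NPA and decapitated plants were lost in a fit of the 2 groups alone (adjusted p from 0.088 to 0.160). In max3 limma called 0 of the expansins, beside 0.998% of all probe sets higher and 1.02% lower. There 1 had an unadjusted p below 0.05, EXPA9 at 1.68 ± 0.50 (adjusted p = 0.104).

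Xyloglucan endotransglucosylase/hydrolases cut and rejoin the xyloglucan that ties cellulose fibrils, and 8 of the 23 listed here, which are not the whole family, were measured. Of these 8, 6 had a mean over all arrays above the trough of 4.2. The measured genes moved in both directions. After decapitation 1 fell and 2 rose (median 0.24), beside 13.4% of all probe sets lower and 12.8% higher, so that the lower count is near the share over all probe sets. The changes were XTH16 (AT3G23730) by -2.81 ± 0.49, XTH32 (AT2G36870) by 1.67 ± 0.35 and XTH27 (AT2G01850) by 1.14 ± 0.19. With IAA 2 rose and 2 fell (median 0.50), beside 11.0% of all probe sets higher and 11.9% lower. XTH20 (AT5G48070) rose by 3.94 ± 0.09 (adjusted p = 1.3e-13) and XTH16 by 1.75 ± 0.49 (adjusted p = 0.017), the latter lost without decapitated replicate 1 and without IAA replicate 3 (adjusted p up to 0.077). XTH20 stood at 2.88 in decapitated and 2.79 in intact plants, below the trough and close to background. XTH32 changed by -3.04 ± 0.35 and XTH27 by -0.92 ± 0.19. Against intact plants IAA left 2 higher and 1 lower, with XTH20 at 4.02 ± 0.09, XTH19 (AT4G30290) at 2.73 ± 0.79 and XTH32 at -1.37. Of all probe sets 3.89% were higher and 4.78% lower in that comparison. The XTH19 call (adjusted p = 0.044) was lost under 6 of 13 alternatives. Without intact replicate 2, IAA replicate 2 or IAA replicate 3, and in a fit of the 2 groups alone, 1 higher and 0 lower calls were left. NPA lowered 1, XTH16 (-4.18 ± 0.49), to 4.16, just below the trough. With NPA 2 rose (median 0.32), among them XTH32 (1.19 ± 0.35, adjusted p = 0.019, or 0.066 without intact replicate 3). Of all probe sets 13.9% were called each way. Between NPA and decapitated plants limma called 0, with 1 at an unadjusted p below 0.05, beside 1.12% of all probe sets higher and 1.23% lower. In the mutants it also called 0, with 1, 0 and 2 at that level in max1, max2 and max3, and 1 lower call in max3 with the replicate block. Of all probe sets 1.92%, 1.65% and 0.998% were higher and 1.82%, 1.47% and 1.02% lower in max1, max2 and max3. XTH16 had the smallest p in max3, at -1.74 ± 0.49 (adjusted p = 0.084).

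**Figure D4:**
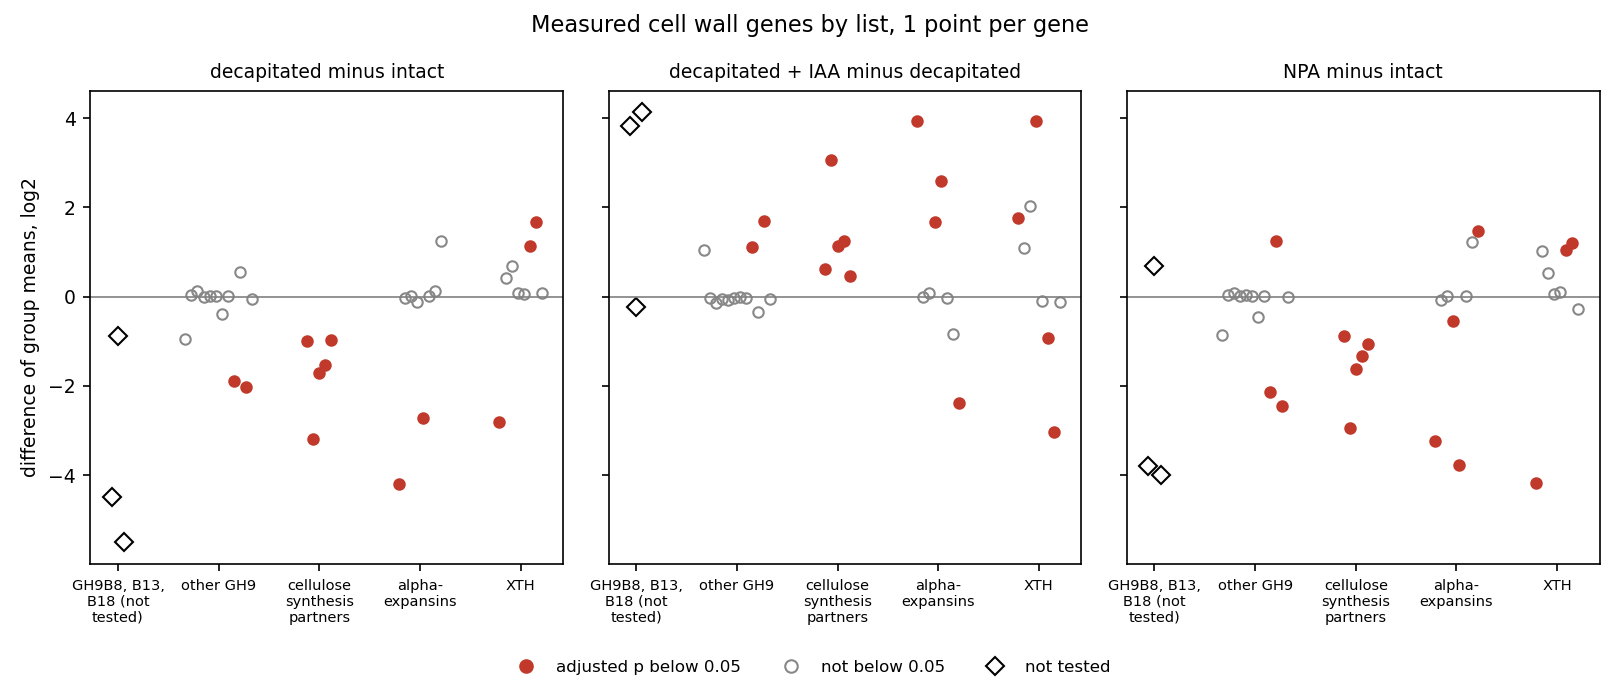
Differences between group means on the log2 scale for GH9B8, GH9B13 and GH9B18 (open diamonds, not tested) and for each measured gene of 4 lists, in 3 comparisons, with filled points for an adjusted p below 0.05. All 5 partners of cellulose synthesis lie below 0 after decapitation and NPA and above 0 with IAA, whereas the xyloglucan enzymes lie on both sides.

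Of the markers of other tissue that a hypocotyl harvest could hold, those measured for shoot apex and root were low. The measured leaf markers were high in every array, RCA at 11.99 to 13.86 and LHCB4.2 at 11.70 to 12.86. Their differences did not pass in the main fit, which cannot tell whether leaf tissue was present. The shoot apex gene CLV3, 1 of 4 apex markers measured, stayed at 1.96 to 2.05, and the root hair gene EXPA7, 1 of 5 root markers, at 1.81 to 1.88. None of the 6 xylem, 3 phloem or 3 cambium markers had a probe set of its own, so the tissue label could not be checked against them. Of 6 leaf markers RCA and LHCB4.2 were measured, and their summed level (log2 of the sum) ran from 13.33 to 13.49 in intact, 13.32 to 14.27 in decapitated, 13.04 to 13.55 in IAA and 13.36 to 14.11 in NPA arrays. In the mutants it ran from 13.17 to 14.34. RCA, the Rubisco activase gene, differed by 0.94 ± 0.42 after decapitation (adjusted p = 0.122, or 0.016 with the replicate block) and by -0.88 ± 0.42 with IAA (adjusted p = 0.134, or 0.027 with the replicate block). The RCA difference after decapitation passed under 3 of 13 alternatives, namely the block, array medians subtracted and the fit without decapitated replicate 3. These differences of RCA run opposite to those of GH9B8 and GH9B13. LHCB4.2 did not share the rise after decapitation. Its means were 12.31 in intact, 12.18 in decapitated and 11.97 in IAA arrays. The part of leaf tissue in the result was not tested.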

How the data were processed

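Values were the deposited log2 expression values of 22810 ATH1 probe sets on 21 arrays. Per the submitters' processing notes RMA, GCRMA and R 3.2.2 were used, with their roles not given in the sources used here. From there, the authors' log2 values were used with no further scaling. Per the labels' protocols 4 µg of RNA was labelled per array. Array medians ran from 6.11 to 6.35, 0 arrays were identical, and correlations were 0.985 to 0.995 within groups and 0.938 to 0.994 between groups.

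Of the probe sets 64 controls were left out and 22746 tested. The annotation gave 1 gene for 13513, several for 503 and none for 8730, and the RefSeq TAIR10.1 gene table held 13436 of these single genes and was used for names and neighbours only. limma 3.58.1 in R 4.3.3 fitted 7 group means (14 residual and 1.03 prior degrees of freedom). It was tested on simulated data first.

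The members and lists were chosen with earlier results of these data known. Named were GH9B8, GH9B13 and GH9B18, every measured family gene, from each other list up to 4 called genes with the largest difference after decapitation and with IAA and up to 2 with NPA or in a mutant against intact plants (the lowest p alone if limma called nothing), and for each member the 5 highest and 3 lowest correlations. List genes named in IAA against intact and NPA against decapitated plants were chosen after their values were seen. Further genes were given by counts.

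Per the labels replicate numbers mark plants treated simultaneously, which makes them a pairing. Residual correlations had medians of 0.427, 0.127 and 0.401 within numbers 1, 2 and 3 and -0.123 between numbers. Alternatives were this block, a fit of the groups compared alone, array medians subtracted, a second quantile normalization, leaving out probe sets with a mean below 3.13, array weights, an intensity trend with robust variances, a change of at least 1, and leaving out each array in turn. The correlations of deviations and over 15 arrays, and the family genes above the trough, were added after the data were seen. Promoter and protein sequences were not analysed here.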

Additional observations from a re-analysis of the deposited data

How the results depend on the processing

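No difference of GH9B8, GH9B13 or GH9B18 changed sign under the alternatives run, and each moved by less than 1 pooled SD of the arrays in the groups compared. Leaving out an array cannot move a difference by that much in groups of this size, so the measure is no check on those fits. With each array left out in turn GH9B8 after decapitation ran from -5.88 to -4.85 and GH9B13 from -4.73 to -4.13. With array medians subtracted the other family genes called were 6 after decapitation (4 higher and 2 lower, 2 in the main fit) and 8 with NPA (6 higher and 2 lower, 3 in the main fit). All the added genes lay near the low peak. Requiring a change of at least 1 left 0 of them called in IAA against intact plants (1 otherwise). The replicate block gave 3, 3 and 4 calls after decapitation, with IAA over decapitation and with NPA against intact plants. GH9A3 was the added gene each time. As every group holds numbers 1, 2 and 3, the block cannot change a difference of group means, only its SE. The differences of GH9B8, GH9B13 and GH9B18 after decapitation (-5.51, -4.48 and -0.88) were therefore the same by design. No listed gene has more than 1 probe set of its own, so averaging probe sets could give no other value. GH9B18 is limited by its closeness to background, and the number of arrays limits all differences.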
